A study of Mus musculus with 6 samples.

Results

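The genes described here encode leukocyte integrins and the proteins on vessel walls that they bind. Members were the lines of the deposited gene table whose symbol equals Itgb2, Itgb7, Itgal, Itgam, Itgad, Itga4, Itgae, Icam1, Icam2 or Vcam1, and all 10 were found among the 33924 genes listed. RNA was measured in RPE/choroid, that is the pigment epithelium of the retina and the vessel-rich choroid below it, scraped from the eyecups of wild-type C57BL/6J mice with a pair of eyes per library. The 3 young libraries are labelled 1 to 2 months, and the 3 aged libraries 20 to 24 months in their titles and 22 to 24 months in the time label. All 6 are labelled male, although the study describes mice of either sex and a somewhat older young group. The labels name no transgene and no treatment in either group. The tissue was scraped rather than sorted, and RNA of neighbouring layers was present, as the marker genes below show. Whether blood cells remained is not stated.

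An integrin is a pair of membrane chains, 1 alpha and 1 beta, which holds a cell to other cells or to matrix. Leukocytes use them to stop on an inflamed vessel wall and to cross it. After selectins have slowed a rolling cell, chemokine signals act through talin and kindlin on the beta chain and open the integrin, which then binds ICAM-1, ICAM-2 or VCAM-1 on endothelium. The beta2 chain, made by Itgb2, occurs in leukocytes only, and its loss in people causes leukocyte adhesion deficiency. The beta7 chain, made by Itgb7, pairs with the alpha4 and alphaE chains on lymphocytes that home to mucosal surfaces.

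The question of the study, how young and aged tissue differ, cannot be addressed per library with the values used here. The table gives 1 level per gene, the authors' mean of normalized counts over all 6 libraries (baseMean), with no SD, no n per group and no depth per library. The remaining columns hold the authors' own comparison of the ages and were not used. What follows therefore describes how abundant each gene was in the pooled tissue, and a gene confined to 1 age group could not be told apart from a gene present in both. Levels were compared between genes mainly after division by the length of the longest protein-coding transcript, as normalized counts per kilobase. Comparisons under other lengths or of undivided levels are marked as such. The study's methods name TPM, a unit already divided by length, as a step before the normalized counts, so the listed levels were checked against length. Over 5 classes of protein-coding genes of equal size, the median listed level rose with transcript length, from 75.4 normalized counts at a median of 1160 bases to 924 at 6470 bases, a 12.3-fold rise in level over a 5.58-fold rise in length. The median per kilobase still rose, from 69.9 in the class of shortest genes to 136 in that of the longest. The check cannot settle whether length is still in the values, because genes of unlike length may also differ in expression. Division by length was kept as the main scale. Should length already have been taken out in part, the levels as listed, given for each of the 10 genes, are the ones to read. Other genes are given mostly per kilobase. Without replicate values no difference between genes was tested, and the stability of an order was read only from its dependence on the length chosen.

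The level per kilobase spanned 301 times over the 10 genes. Vcam1 stood at the top with 698 normalized counts per kilobase, followed by Itgb2 with 571, Icam1 with 557, Icam2 with 286 and Itgam with 236. Itga4 had 136 normalized counts per kilobase, Itgb7 had 74.6, Itgal had 32.7, Itgae had 15.6 and Itgad had 2.32. The order at the top rests on the length used: Itgb2 lay above Vcam1 with the mean length over transcripts (1283 against 1076 normalized counts per kilobase), and Icam1 above Itgb2 with coding lengths (877 against 734). As listed, with no division by length, the order was Vcam1, Itgb2, Icam1, Itga4, Itgam, Icam2, Itgb7, Itgal, Itgae and Itgad. The median over the 16467 protein-coding genes listed above 0 was 110 normalized counts per kilobase, so that 6 of the 10 genes lay above it and 4 below. The 3 ligands were all above this median, whereas 3 of the 5 alpha chains were below it.

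**Figure D1:**
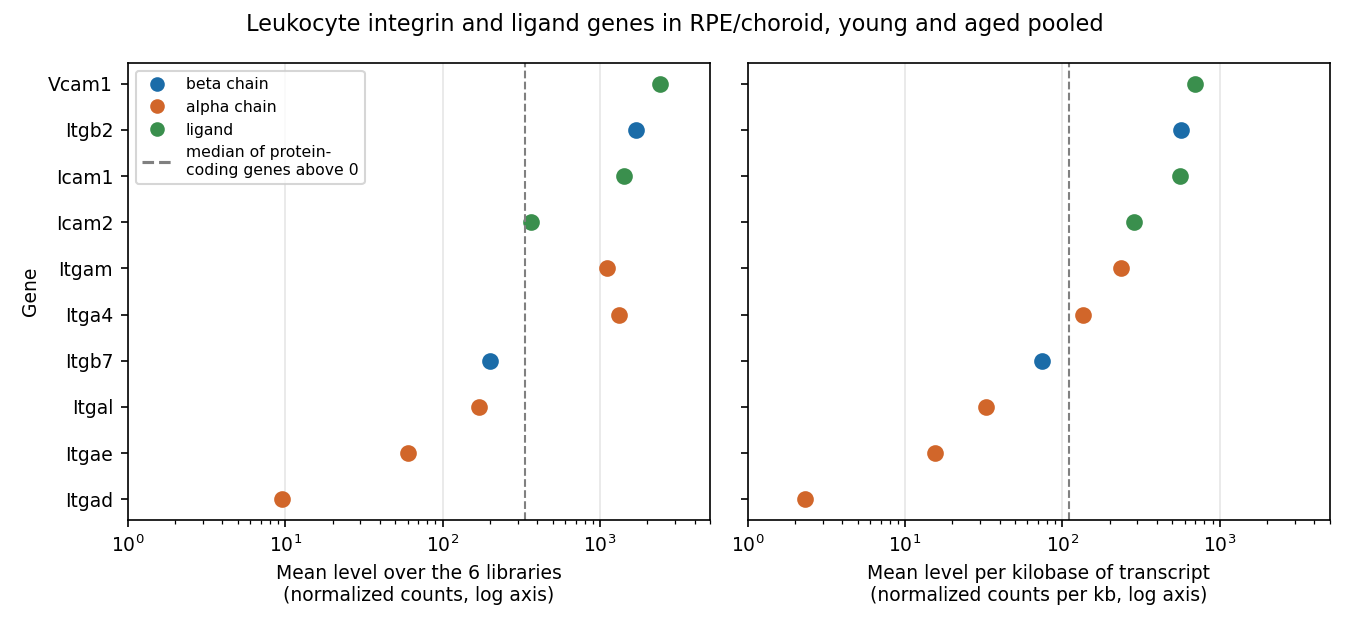
Each point is 1 gene, coloured by role, at the authors' mean over the 6 libraries (left, normalized counts) and at the same mean per kilobase of its longest protein-coding transcript (right), both on log axes, with a dashed line at the median of protein-coding genes. From Itgad at 2.32 normalized counts per kilobase the genes rise to Vcam1 at 698, and Itga4 falls below Itgam and Icam2 once divided by transcript length. With coding lengths, not drawn, Itga4 (429) lies above Itgam (315).

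The beta chains are considered first, because each sets which alpha chains can reach the surface. Itgb2 lies on chromosome 10 at 77530252 to 77565708 (GRCm38, plus strand) and has 16 exons in its longest transcript of 2970 bases. Its mean level was 1695 normalized counts, or 571 per kilobase, which is higher than 87.3% of protein-coding genes. Itgb7, on chromosome 15 at 102215995 to 102231944 on the minus strand, had a mean level of 200.0 normalized counts, or 74.6 per kilobase, and exceeded 42.4% of protein-coding genes. Per kilobase, Itgb2 stood 7.66 times above Itgb7, and the ratio stayed between 6.26 and 8.87 under the other lengths. Itgb1, the widely expressed beta chain that also pairs with alpha4, reached 2736 normalized counts per kilobase, 36.7 times the level of Itgb7, a ratio that ran from 22.5 with the mean over transcripts to 52.7 with coding lengths.

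The alpha chains of the beta2 family lie on chromosome 7, all on the plus strand. Itgal, which makes the alphaL chain of LFA-1, the main integrin of lymphocytes for ICAM-1 and ICAM-2, occupies 127296260 to 127335138. A gap of 727501 bases separates it from a tight group formed by Itgam at 128062640 to 128118491, Itgax at 128129547 to 128150657 and Itgad at 128154376 to 128223816. Only 11055 bases lie between Itgam and Itgax, and 3718 between Itgax and Itgad. Itgam makes the alphaM chain (CD11b) of Mac-1, the integrin and complement receptor of myeloid cells, and Itgax makes the alphaX chain (CD11c). Itgad makes the alphaD chain, known from macrophages.

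Neighbouring genes of this group differed widely in level. Itgam had a mean level of 1103 normalized counts, or 236 per kilobase, and Itgax one of 1757, or 434 per kilobase. Itgal reached 171.0 normalized counts, which is 32.7 per kilobase over its long transcript of 5222 bases. Itgad had 9.52 normalized counts, or 2.32 per kilobase, and exceeded 12.5% of protein-coding genes. Itgam therefore stood 7.20 times above Itgal per kilobase, and between 6.45 and 7.11 times under the other lengths.

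Taken as a sum of levels per kilobase, the 4 alpha chains that can pair with beta2 came to 705 normalized counts per kilobase, beside 571 for Itgb2 itself. Itgax held 61.6% of that sum, Itgam 33.4%, Itgal 4.65% and Itgad 0.329%. With coding lengths the shares were 57.8% for Itgax, 36.4% for Itgam, 5.48% for Itgal and 0.305% for Itgad. The order of the 4 was the same under all 5 ways of scaling. The ratio of beta2 to its alpha chains was 0.810, and whether it lay below or above 1 depended on the length used (0.847 with coding lengths and 1.31 with the mean over transcripts).

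**Figure D2:**
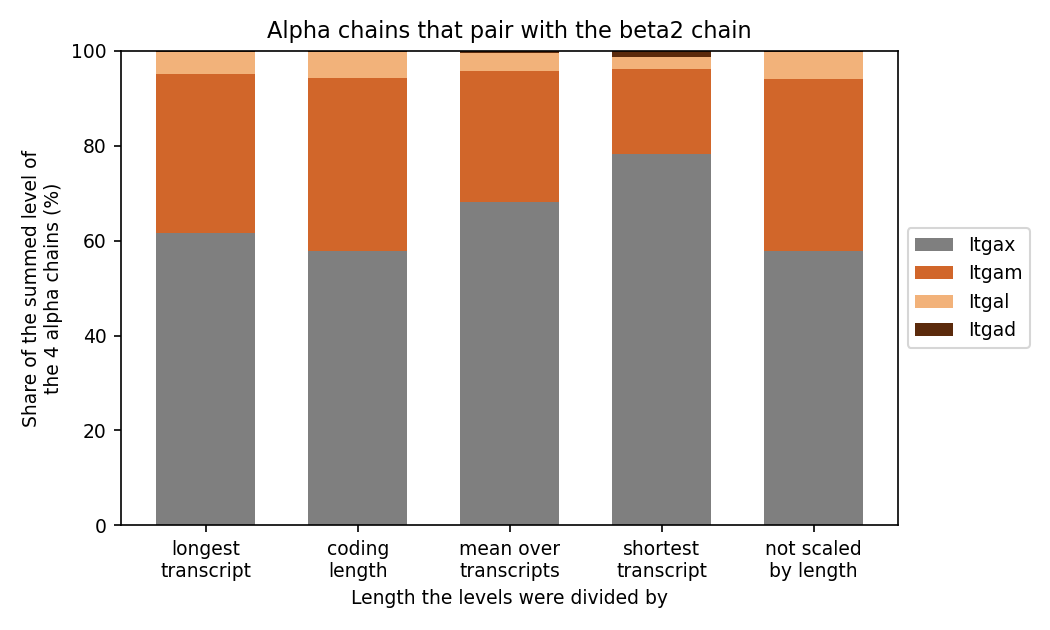
Each bar shows how the summed level of the 4 alpha chain genes that pair with Itgb2 (100%) divides among them, under 5 ways of scaling by length. Itgax holds between 57.8% and 78.2%, Itgam between 18.0% and 36.4%, and Itgad is barely visible at 0.305% to 1.28%.

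Because the chromosome 7 genes arose by duplication, the share of each gene's sequence that is its own bears on how reads could be assigned. Of the 31-base words in the GENCODE M21 transcripts of Itgad, 82.5% occurred in no other gene. Itgax shared 512 words with Itgad, which is 11.3% of the words of Itgad and 10.7% of those of Itgax. The longest run in common with Itgax, 188 bases of coding sequence, spans exons 11 to 13 of 30 in Itgax and exons 12 to 14 of 31 in Itgad, at chr7:128135612-128136062 and chr7:128189340-128189789. It is shown because a read from it fits both genes, and the level of Itgax was far above that of Itgad. Itgad shared a further 271 words with Gm17831, a processed pseudogene that overlaps it on the same strand and has no line of its own in the table, with a longest run of 225 bases.

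Shared by Itgax and Itgad (transcript strand, exons joined): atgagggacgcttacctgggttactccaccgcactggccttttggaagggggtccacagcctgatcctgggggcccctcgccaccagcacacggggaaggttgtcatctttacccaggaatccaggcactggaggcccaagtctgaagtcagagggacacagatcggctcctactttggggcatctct

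At 9.52 normalized counts, the level of Itgad is thus uncertain, and the part of it that came from reads shared with Itgax or Gm17831 was not tested. Itgam had 31.9% of its words to itself. Nearly all words that Itgam shares, 3421 of 3466, are shared with Gm49368, a gene model that overlaps it on the same strand in GENCODE M21 and has no line of its own in the table. The authors used a different annotation, an Ensembl release, and whether Gm49368 took reads from Itgam in their counting was not tested. For Itgb7 and Icam2 all words were their own. Itgal and Itgae each shared 1 word with another gene. The own share was 97.7% for Itgb2, 98.9% for both Itga4 and Vcam1, and 96.5% for Icam1. Genes on the opposite strand overlap Itgad, Itga4, Itgae, Icam1 and Vcam1, and the libraries were made with a stranded kit. Whether strand was used in the counting is not given in the sources used here.

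Itgam is also a member for which a reference promoter was at hand. In myeloid cells its transcription is known to depend on PU.1, a factor of the ETS family. The 250 bases before the RefSeq start of Itgam, at chr7:128062390-128062639 on the plus strand (GRCm38.p6), are shown with every match to the letters GAGGAA, read on either strand, in capitals.

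Itgam: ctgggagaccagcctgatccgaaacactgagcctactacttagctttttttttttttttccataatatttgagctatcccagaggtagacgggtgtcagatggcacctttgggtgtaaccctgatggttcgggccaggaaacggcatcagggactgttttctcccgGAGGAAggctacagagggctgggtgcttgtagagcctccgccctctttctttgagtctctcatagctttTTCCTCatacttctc

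The motif occurred at 2 places, from 84 to 79 bases before the start on the same strand and from 15 to 10 bases before it on the opposite strand. Of 32851 promoter windows of this length, 23.3% hold it at least once. No match was found in the windows of Icam1, Itga4 and Itgb7, the other 3 genes of the 10 with a promoter in the table of sequences.

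The alpha chains outside the beta2 family pair with beta1 or beta7. Itga4, on chromosome 2 at 79255426 to 79333123, makes the alpha4 chain, which binds VCAM-1 and fibronectin as alpha4beta1 (VLA-4) and the gut address protein MAdCAM-1 as alpha4beta7. Its mean level was 1328 normalized counts, second to Itgb2 among the 7 integrin chains of the list before division by length. Spread over its long transcript of 9767 bases, of which 3096 are coding, this came to 136 per kilobase, or 429 per kilobase of coding sequence. Itga4 was thus below Itgam per kilobase of transcript and above it, at 429 against 315, with coding lengths. Itgae, on chromosome 11 at 73090583 to 73147446, makes the alphaE chain (CD103) of tissue-resident lymphocytes and some dendritic cells, whose ligand is E-cadherin. It had 59.99 normalized counts, or 15.6 per kilobase.

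Set against its partners, Itgb7 lay between both alpha chains. Per kilobase, Itga4 was 1.82 times as high as Itgb7, and Itgb7 4.78 times as high as Itgae. The first ratio was 5.18 with coding lengths, 6.64 as listed and 0.663 with the mean over transcripts, so the order of Itga4 and Itgb7 rests on the length assumed. The second ratio was 4.83 with coding lengths and rose to 13.1 with the mean over transcripts and 35.8 with the shortest. Itgb1 exceeded Itga4 20.1-fold per kilobase, and from 7.86-fold without scaling to 108-fold with the shortest transcript. As for the ligands of the beta7 pairs, Cdh1 (E-cadherin), which is an epithelial protein, had 356 normalized counts per kilobase, and Madcam1 had 2.80 at a mean level of 4.02 normalized counts.

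Vcam1, Icam1 and Icam2 are the vascular ligands. VCAM-1 and ICAM-1 are known to be induced on endothelium by inflammatory cytokines through NF-kappaB and are also made by epithelial and stromal cells, whereas ICAM-2 is made by resting endothelium and by platelets and leukocytes. Vcam1, on chromosome 3 at 116109949 to 116129688 (minus strand), had the highest mean level of the 10 genes, 2422 normalized counts or 698 per kilobase, and exceeded 90.1% of protein-coding genes. Icam1, on chromosome 9 at 21015985 to 21028817 (plus strand), followed with 1413 normalized counts or 557 per kilobase. Icam2, on chromosome 11 at 106377656 to 106388075 (minus strand), had 367 normalized counts, and its short transcript of 1282 bases raised this to 286 per kilobase.

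Per kilobase, Vcam1 was 1.25 times as high as Icam1, and Icam1 1.95 times as high as Icam2. With coding lengths these ratios were 1.25 and 1.99, and with the mean over transcripts they were 1.93 and 1.10. The order of Vcam1, Icam1 and Icam2 held under these lengths, while the gap between Icam1 and Icam2 nearly closed under the last. With the shortest transcript Icam1 over Icam2 turned to 0.768, and as listed it was 3.85. Icam1 has 2 gene neighbours of its own family on chromosome 9. Icam4, the red cell protein, was listed at 0, and Icam5, a protein of neurons, had 6.76 normalized counts or 2.29 per kilobase.

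Binding of NF-kappaB to the Icam1 promoter is textbook knowledge, and the window before its RefSeq start, at chr9:21015690-21015939 on the plus strand (GRCm38.p6), is shown for that reason. Capitals mark matches to GGNNNTTCC, a loose form of the NF-kappaB site, read on either strand.

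Icam1: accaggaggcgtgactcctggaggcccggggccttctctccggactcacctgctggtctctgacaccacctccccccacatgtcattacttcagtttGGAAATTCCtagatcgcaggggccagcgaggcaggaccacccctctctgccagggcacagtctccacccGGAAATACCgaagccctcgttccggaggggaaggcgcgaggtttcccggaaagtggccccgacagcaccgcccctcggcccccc

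Matches lay at 2 places. The first, GGAAATTCC, reads as a match on both strands from 153 to 145 bases before the start, and the second, GGAAATACC, matches on the opposite strand from 84 to 76 bases before it. Of all 32851 windows, 15.7% hold such a match, and the windows of Itgam, Itga4 and Itgb7 held none. With 65.2% G and C the Icam1 window was richer in these bases than the median window, at 52.4%.

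Genes that act with these integrins were taken from a list of 37, of which 36 were in the table. Of the 36, 22 lay above the median of protein-coding genes per kilobase, and 1 (Icam4) was at 0. Selectins and their ligand, which mediate rolling, were the lowest group, with 0 of 3 genes above the median and a range from 11.9 normalized counts per kilobase for Selp (P-selectin of platelets and endothelium) to 94.4 for Selplg (PSGL-1, the ligand on leukocytes). Each of the 3 vascular ligands among the members was above each of these 3 genes.

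Of 12 genes for activation of integrins from inside the cell, 7 lay above the median. They ran from Skap1, an adaptor of T cells, at 18.1 normalized counts per kilobase to Tln1 (talin-1), which links beta chains to actin in most cells, at 1169. All 4 transmigration genes in the table were above the median, from Cdh5 (VE-cadherin) at 257 to Esam, an endothelial junction protein, at 515, and the fifth, Cd99, was not matched to a line. Among 7 partners of beta1 and alpha4, 4 lay above the median, from Itga2, a collagen receptor chain, at 20.6 to Itgb1 at 2736. Among 9 other ligands the figure was 6, with Jam3, a junctional molecule that binds Mac-1, at the top (1190 normalized counts per kilobase).

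**Figure D3:**
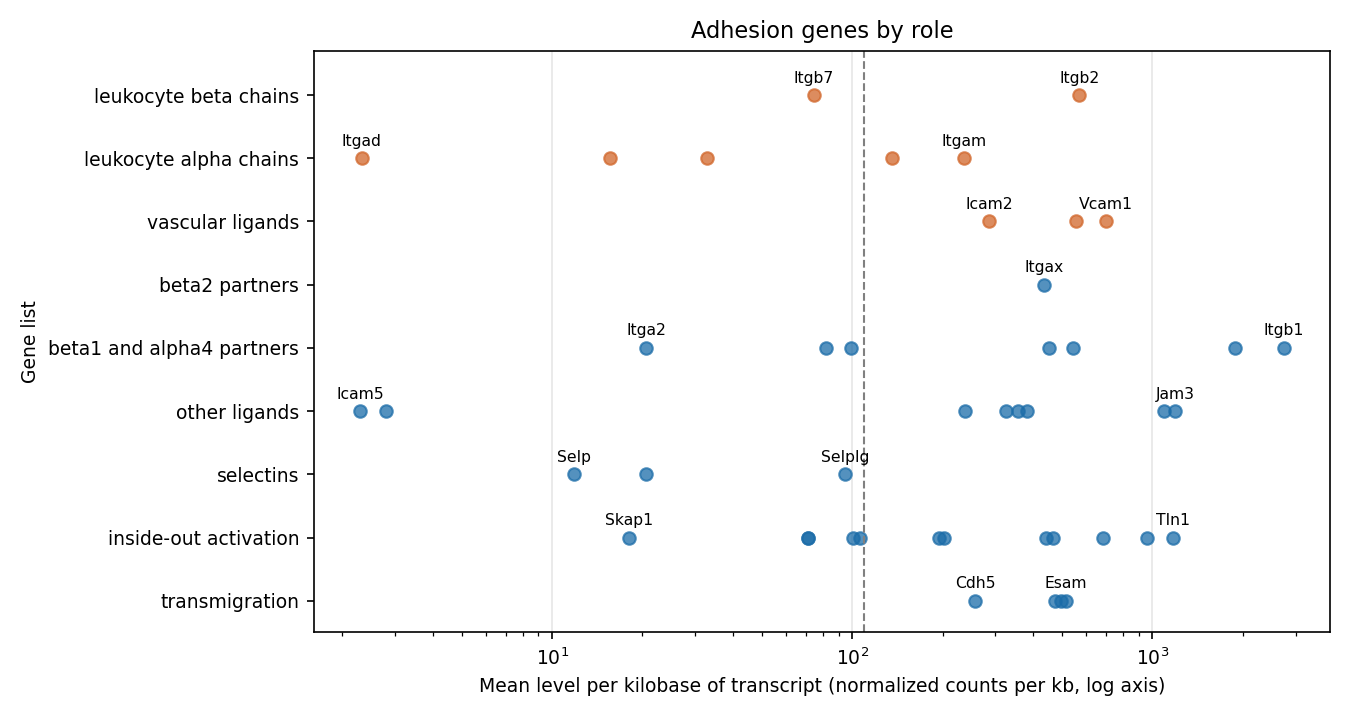
Each point is 1 gene at its mean level per kilobase (log axis), in rows by role, with the integrin and ligand genes of this report in orange, the wider adhesion list in blue, the lowest and highest gene of each row named and a dashed line at the median of protein-coding genes. All 3 genes in the selectin row lie left of the line and all 3 vascular ligands right of it. Icam4, at 0, is not drawn.

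Markers of cell types give the levels beside which these genes can be read. In bulk tissue, fewer cells of a type and less RNA per cell cannot be told apart. The RPE markers ran from 33.6 normalized counts per kilobase for Best1 to 83745 for Ttr, with 4 of 5 above the median, and pigment cell genes from 2116 for Tyr to 27072 for Pmel. RNA of other layers was present too: rod genes ran from 2318 normalized counts per kilobase (Pde6b) to 7658 (Sag), fibroblast genes from 800 (Pdgfra) to 24704 (Dcn) and skeletal muscle genes from 4719 (Ckm) to 12062 (Acta1). The part of these layers in the levels of the adhesion genes was not tested.

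Leukocyte markers covered the range of most integrin chains. All 5 macrophage markers were above the median, from Cx3cr1 at 173 normalized counts per kilobase to Cd68 at 995, and Itgb2, Itgax and Itgam fell inside that range. With coding lengths those markers ran from 686 to 1386, with Itgb2 (734) inside and Itgax (501) and Itgam (315) below. T cell markers ran from 7.93 (Cd3e) to 77.7 (Cd4), with 0 of 5 above the median, a range that also holds Itgal, Itgae and Itgb7. Itgb7, at 74.6, lay inside only by way of Cd4, which myeloid cells also make, since the other 4 markers reached at most 36.0 (Cd3g). Itgal, at 32.7, was above 3 of the 5 markers, which lay between 7.93 and 11.1, and below Cd3g and Cd4. As listed, Itgal (171.0 normalized counts) and Itgae (59.99) lay above Cd3g (36.8) and inside the T cell range only by way of Cd4 (241). With the mean over transcripts Itgb7 (205) lay above all 5, and with coding lengths Itgae (17.1) lay below the lowest (20.4). Itga4, at 136, lay between the T cell and the macrophage markers per kilobase, but inside the macrophage range as listed (1328 normalized counts, in a range from 303 to 4063), and Itgad, at 2.32, below both. B cell markers ran from 12.8 (Cd79a) to 19.1 (Ms4a1), NK cell markers from 3.32 (Klrb1c) to 43.2 (Gzma) and dendritic cell markers from 8.44 (Xcr1) to 28.3 (Clec9a). Per kilobase of the longest transcript, Itgal also lay inside the NK cell range, and Itgae inside the B cell, NK cell and dendritic cell ranges. Both lay inside the NK cell range only by way of Gzma, since the other NK cell markers reached at most 3.95. As listed, Itgal (171.0 normalized counts) and Itgae (59.99) lay above the highest NK cell marker (43.0), Itgae lay just above the highest B cell marker (58.8), and with coding lengths Itgae (17.1) lay below the lowest B cell (28.4) and dendritic cell (19.9) markers. Mast cell markers were higher, from 146 (Kit) to 331 (Cma1), a range that also holds Itgam (236) and Icam2 (286). With coding lengths the mast cell range, from 231 to 463, held Itgam (315), Itga4 (429) and Icam2 (442). As listed, Itgam (1103 normalized counts) lay above the highest mast cell marker (763).

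The 5 neutrophil markers fell apart into low and high genes, with 2 of 5 above the median. Neutrophils carry both Mac-1 and LFA-1. Mpo and Elane, granule genes transcribed mainly in precursors of neutrophils, had 0 and 0.354 normalized counts per kilobase, and Ly6g, a surface marker, had 0.315. S100a8 and S100a9, abundant in neutrophils and also made by other myeloid cells, had 168 and 215. S100a8, Ly6g and Elane were named after their values were seen, and the part of neutrophils in the levels of the integrin genes was not tested. Endothelial markers ran from 486 (Vwf) to 1107 (Emcn), and the levels of Vcam1 and Icam1 fell inside that range, whereas Icam2 lay below it. With the shortest transcripts Icam2 (726) lay inside the range of these markers, 532 to 3964, and as listed Icam1 (1413 normalized counts) lay below theirs, 2175 to 6377. Per kilobase of the longest transcript, Itgb2 (571) also fell inside the endothelial range. Vcam1 (698), Icam1 (557) and Icam2 (286) also fell inside the macrophage range, from 173 to 995. The marker ranges thus overlapped, and a level inside a range does not name a cell type.

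**Figure D4:**
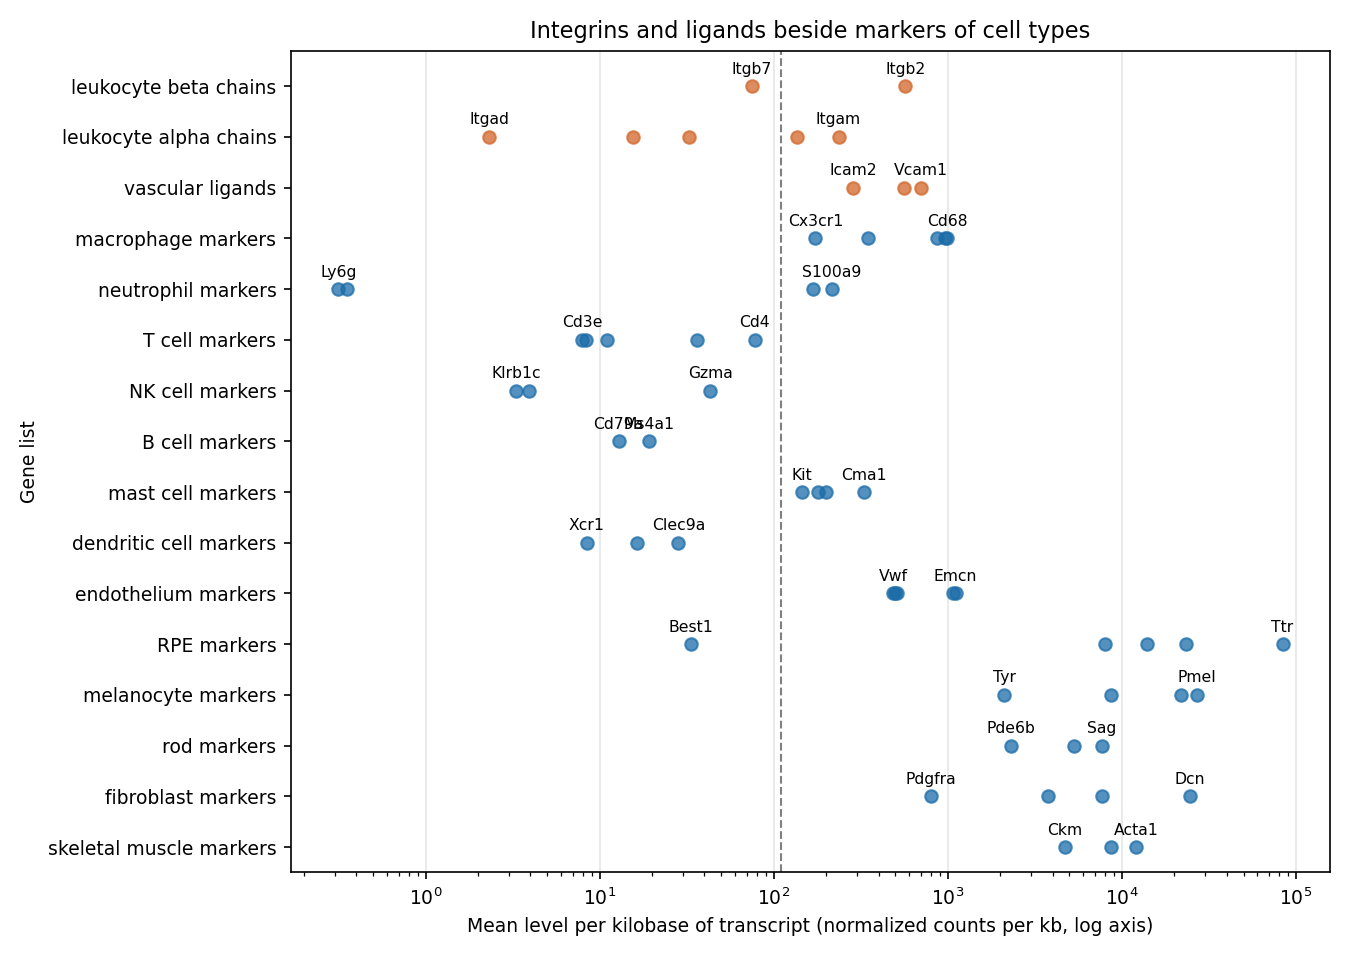
Each point is 1 gene at its mean level per kilobase (log axis), with the integrin and ligand genes in orange and 13 marker lists in blue, the lowest and highest drawn gene of each row named. Itgb2 lies among the macrophage markers, from 173 to 995, and also inside the endothelial range, from 486 to 1107. Itgal lies inside the range of the T cell markers, from 7.93 to 77.7. Itgal lies inside that of the NK cell markers, from 3.32 to 43.2, only by way of Gzma, and not for the levels as listed. Mpo, at 0, is not drawn.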

How the data were processed

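Total RNA of RPE/choroid from 3 young and 3 aged mice was freed of ribosomal RNA and made into stranded libraries. Per the study's methods, the authors trimmed reads with BBDuk, mapped them with STAR to Ensembl transcripts of GRCm38, estimated TPM with Sailfish and transformed it into normalized counts by total count. The deposited table is the authors' DESeq2 comparison. Its baseMean, a normalized signal deposited as 1 mean over all 6 libraries and summing to 19192071 over all genes, was used. Whether length is still in these values is not stated, and their medians were therefore compared over 5 length classes, which could not settle it. Its fold changes, standard errors, statistics and p-values, which the authors computed, were not used. The table had 0 columns naming a sample, so the depth of each library is unknown here and no test was run. Because no library has its own value, the test of age planned for such values was not made.

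Lengths, coordinates and 31-base words came from GENCODE M21 (GRCm38), which held 28553 of 33924 symbols. Adgre1 was found under an older symbol. Longest means the longest protein-coding transcript. Levels were divided by length in kilobases and placed among genes above 0. Promoters came from RefSeq (GRCm38.p6). Word and motif searches were tested on simulated sequences. Named are all 10 members, the highest and lowest gene of each list, genes at 0 among adhesion genes, and Itgax, Itgb1, Cdh1 and Madcam1. Icam5, Cd3g, S100a8, Ly6g and Elane were named in addition, after their values were seen. Some genes of the planned lists are not reported here and were left out of their lists' counts. Members and lists were chosen with earlier results of these data known. Work was done in Python 3.11.15 with pandas 2.3.3.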

Additional observations from a re-analysis of the deposited data

How the results depend on the processing

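Of the 45 pairs among the 10 genes, 43 kept their order with coding lengths, 43 with the mean over transcripts, 42 with no scaling and 39 with the shortest transcript, which is often a fragment. The pairs that turned with coding lengths were Itgb2 with Icam1 and Itgam with Itga4, and with the mean over transcripts Vcam1 with Itgb2 and Itga4 with Itgb7. The number above the median was 8 against all genes above 0 and 6 against protein-coding genes or genes at a level of at least 10, without scaling by length. The wider list gave 22 genes above the median per kilobase and 24 unscaled. The ratio of Itgb2 to the sum of its alpha chains was 0.810 and turned to 1.31 with the mean over transcripts and 2.52 with the shortest. Itga4 over Itgb7 was 1.82 and turned to 0.663 and 0.243 under the same lengths, and Icam1 over Icam2 was 1.95 and turned to 0.768 with the shortest, against 3.85 unscaled. As listed, Itga4 lay above Itgam and Icam2, and Itgam above Icam2. Itgb7 over Itgae kept its direction, from 3.33 unscaled to 35.8 with the shortest, as did Itgb1 over Itga4, from 7.86 to 108, and Vcam1 over Icam1, from 1.25 to 5.80. Changes of up to 1.5 times were counted as no change.

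No paired analysis was possible because each gene has a single pooled value. The planned test of age, its normalizations and filter, and the fits without each replicate could not be run either.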
